A study of Mus musculus with 27 samples.

Results

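The genes described here encode the proteins of the cytosolic ribosome. They were taken from the gene table as every protein-coding row whose symbol starts with Rpl or Rps followed by a digit, together with Rplp0, Rplp1, Rplp2 and Rpsa, and the 10 rows of Rps6k kinases were left out. This gave 94 genes of 54532 rows, of which 22046 are protein-coding. Among the 94, 77 are the core subunit genes, 46 of the large subunit and 31 of the small. A further 8 are paralogs of core genes, 8 are protein-coding rows with a pseudogene-style symbol, and 1, Rps19bp1, encodes a protein that binds Rps19 and is not a ribosomal subunit. The mean level was at least 0.5 FPKM (fragments per kilobase of gene, scaled for library size) for 89 of the 94, and only these entered the tests. The other 5 were Rpl3l with 28 fragments over all libraries, Rpl13a-ps1 with 2, Rpl9-ps1 with 1, and Rpl10l and Rpl36-ps4 with 0.

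The libraries came from mouse embryonic fibroblasts (MEFs) of 3 genotypes, WT, Per1-/- and Per2-/-, which were pushed towards induced neurons with the BAM set of neuronal transcription factors carried on lentiviruses under a doxycycline-inducible promoter. RNA was taken on day 0, before induction, and on days 2 and 4 after it, with 3 biological replicates of each genotype and day, 27 libraries in all. All cultures, those of day 0 included, had received the viruses 3 days before day 0. On day 0 doxycycline was added and serum-containing medium was replaced by serum-free N3 medium, so that time in culture, the BAM factors and the loss of serum cannot be told apart in any comparison of days. The MEFs were made from mid-gestation embryos pooled by dish without head and heart, their sex was not determined, and p-values measure the spread between such cultures.

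The labels call all 27 libraries induced neurons. Fibroblast markers were at the highest summed level of the marker lists on every day, 2353 to 4039 FPKM on day 0 and 4293 to 5902 on day 4 for 10 genes, whereas 15 neuron markers summed to 49.1 to 110 FPKM on day 0 and 139 to 243 on day 4. Per1 averaged 5.78 ± 0.479 FPKM in WT and 4.11 ± 0.866 in Per1-/- on day 0 (SD, n = 3), a difference that did not pass the test. Per2 was higher in the libraries labelled Per2-/- than in WT, 1.93 ± 0.0680 against 0.894 ± 0.0709 FPKM on day 0 (SD, n = 3), with no overlap on any day, and these libraries are named by their label throughout. The deleted part of either gene is not resolved by counts over the whole gene. Depth was 15815013 to 24264097 assigned fragments a library.

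A ribosome is built from a small subunit, which reads the messenger RNA, and a large subunit, which joins amino acids, and each holds ribosomal RNA and one copy of most of its proteins. Most ribosomal protein mRNAs begin with a cytosine followed by a run of pyrimidines, the terminal oligopyrimidine (TOP) motif, through which mTOR and Larp1 set their translation, and they are among the most abundant messages of growing cells. The acidic proteins Rplp0, Rplp1 and Rplp2 form the stalk that recruits elongation factors. Rpl5 and Rpl11, when not built into ribosomes, bind Mdm2 and so stabilise p53.

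Since the TOP motif lies at the first transcribed bases, the annotated starts of these genes were read in RefSeq (GRCm38.p6). A promoter entry was matched for 66 of the 94 members, 57 of them core genes. A C at the annotated start followed by 4 bases that are each C or T was present in 13 of the 57 core genes (22.8%), against 813 of 27025 genes of the whole table (3.01%) and 0 of 69 genes for proteins of the mitochondrial ribosome. Windows of 30 bases, 12 before the start and 18 from it, are shown for 4 genes with such a run and for 3 of the genes whose mRNA is described most closely here and whose annotated start lacks one. Capitals mark the pyrimidine run that begins at the start.
Rps6 (chr4:86857350-86857379, GRCm38, minus strand): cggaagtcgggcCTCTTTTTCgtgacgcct
Rpl38 (chr11:114668568-114668597, GRCm38, plus strand): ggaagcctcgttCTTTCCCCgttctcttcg
Rplp2 (chr7:141447639-141447668, GRCm38, plus strand): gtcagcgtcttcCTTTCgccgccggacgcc
Rps18 (chr17:33955648-33955677, GRCm38, minus strand): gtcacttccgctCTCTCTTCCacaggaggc
Rpl5 (chr5:107900516-107900545, GRCm38, plus strand): cacgtcgcttgcgtgctggtggtgctacat
Rps2 (chr17:24720051-24720080, GRCm38, plus strand): cagtcgagatctcgcgcttcttggagcact
Rpsa (chr9:120127754-120127783, GRCm38, plus strand): ggttatttaaggacgtcatttccggccgcc
The window is tied to the annotated start, so a start moved by a few bases gives a different answer, and the absence of the run says only that these letters are not at this position. CTTCCG, the core of an ETS-family binding sequence, occurred on either strand of the 300 bases around the start in 70.2% of the core genes, in 56.5% of the mitochondrial ribosomal protein genes and in 18.8% of all genes. TATAAA, read the same way, was in 10.5% of the core genes and 15.7% of all genes.

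The core genes were among the most abundant transcripts in these cultures. Their median level was 231 FPKM over the 27 libraries, 214 for large subunit genes and 262 for small subunit genes, and 72 of the 77 ranked among the 1000 most abundant rows. The highest were Rplp1 at 1856 FPKM, Rplp0 at 1021, Rps3a1 at 852, Rpl41 at 756 and Rpl36 at 654. At the low end, Rps10 stood at 1.55 and Rpl24 at 0.854 FPKM, and of the core genes only these lay below 10. A ribosome holds these proteins in nearly equal numbers, but the deposited levels of their genes ran from 0.854 to 1856 FPKM. The low values of Rps10 and Rpl24 may not reflect their mRNA levels. Of the fragments on Rps10 and its named copies together, 98.0% lay on the copies. All 50-base windows of the Rpl24 coding sequence were shared with other annotated genes. Core genes varied little between replicates, with a median SD of 0.134 on the log2 scale against 0.201 for all tested genes and 0.147 for genes of at least 50 FPKM.

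The share of all assigned fragments that fell on the 94 genes was smaller on days 2 and 4 than on day 0 in each genotype. In WT the replicates held 4.53, 3.95 and 4.19% on day 0, then 3.37, 3.43 and 3.13% by day 2, and finally 3.64, 3.79 and 3.33% by day 4. In Per1-/- they held 4.05, 4.67 and 4.17% on day 0, then 3.17, 3.48 and 3.47% by day 2, and finally 3.21, 3.70 and 3.65% by day 4. The libraries labelled Per2-/- held 3.64, 4.06 and 4.18% on day 0, then 3.58, 3.03 and 3.48% by day 2, and finally 3.23, 3.49 and 3.35% by day 4. Every later library lay below every day 0 library of its own genotype. The mean was lower by 21.6% on day 2 and 15.1% on day 4 in WT, by 21.5 and 18.1% in Per1-/-, and by 15.1 and 15.2% under the Per2-/- label. With 3 libraries against 3, an exact two-sided permutation test cannot go below p = 0.1, which each of these 6 comparisons reaches. Taken as a share of summed FPKM, which weights short genes more, the WT libraries of day 4 overlapped those of day 0.

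**Figure D1:**
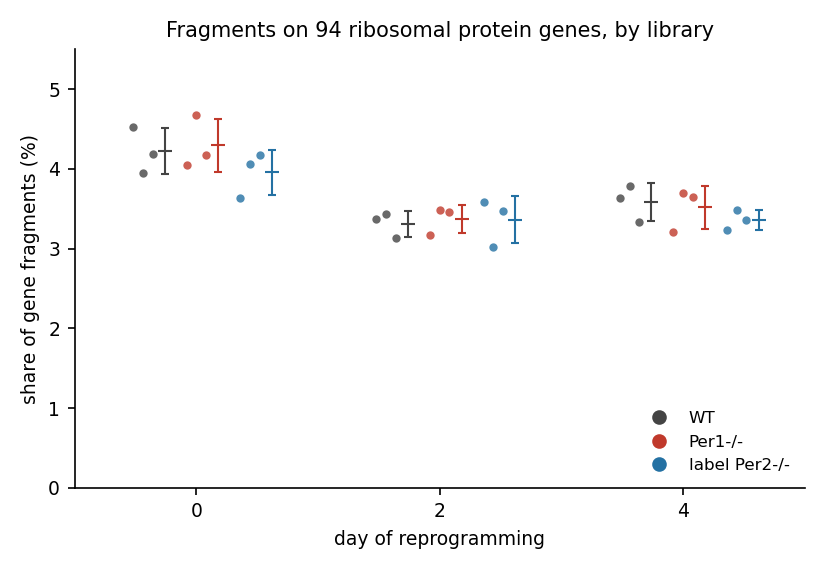
Percent of assigned fragments on the 94 ribosomal protein genes (y axis) in each library by day (x axis), with points for libraries and mean ± SD for the 3 replicates of WT (grey), Per1-/- (red) and the libraries labelled Per2-/- (blue). Day 0 libraries lie between 3.64 and 4.67%, day 2 libraries between 3.03 and 3.58% and day 4 libraries between 3.21 and 3.79%.

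Relative to the rest of the transcriptome, ribosomal protein mRNAs fell within 2 days of induction. Differences were tested with limma on log2(FPKM + 0.1) over 14932 genes, and a call needed a change of at least 0.58 on that log2 scale (about 1.5-fold) and an adjusted p (Benjamini-Hochberg) of 0.05 or lower. From day 0 to day 2, 56 of the 89 tested members were called lower in WT (62.9%, where 19.7% of all tested genes were), 52 in Per1-/- (58.4% against 18.8%) and 23 under the Per2-/- label (25.8% against 16.8%). Without replicate 2 of day 2 the count under the Per2-/- label was 12. No member was called higher in any of the 3, while 20.8, 20.8 and 18.7% of all genes were. The median change of the members was -0.65, -0.63 and -0.49 on the log2 scale, and the median of all tested genes was -0.01 in each.

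On day 4 fewer members passed the fold threshold. From day 0 to day 4, 24 members were called lower in WT (26.97%, where 20.9% of all genes were), 31 in Per1-/- (34.8% against 20.4%) and 20 under the Per2-/- label (22.5% against 18.8%). The WT and Per2-/- label shares were near the background. The WT count was 37 without replicate 2 of day 0 and 38 without replicate 2 of day 4, and the Per1-/- count was 18 without replicate 2 of day 0. Members called higher were again 0 in each genotype, against 22.9, 22.6 and 21.6% of all genes. The median change was -0.51, -0.51 and -0.43 on the log2 scale.

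Most members lay near the fold threshold, so its place sets the count. With the adjusted p alone, 78, 81 and 77 of 89 members were lower on day 2 in WT, Per1-/- and the Per2-/- label, where 30.9, 30.8 and 28.4% of all genes were. On day 4 these counts were 73, 73 and 64, with backgrounds of 32.7, 32 and 30.9%. In the same order of genotypes, all 3 day 2 libraries lay below all 3 day 0 libraries for 78, 83 and 78 members, where 34.6, 31.1 and 31.5% of all genes did. For day 4 the numbers were 74, 76 and 66 members, with 35.5, 32.1 and 32.8% of all genes. No member lay wholly above in any of the 6 comparisons. The members thus moved by a modest amount, but nearly all in 1 direction: 85 to 88 of the 89 had a negative change in each comparison, where 49.7 to 51.0% of all tested genes did.

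**Figure D2:**
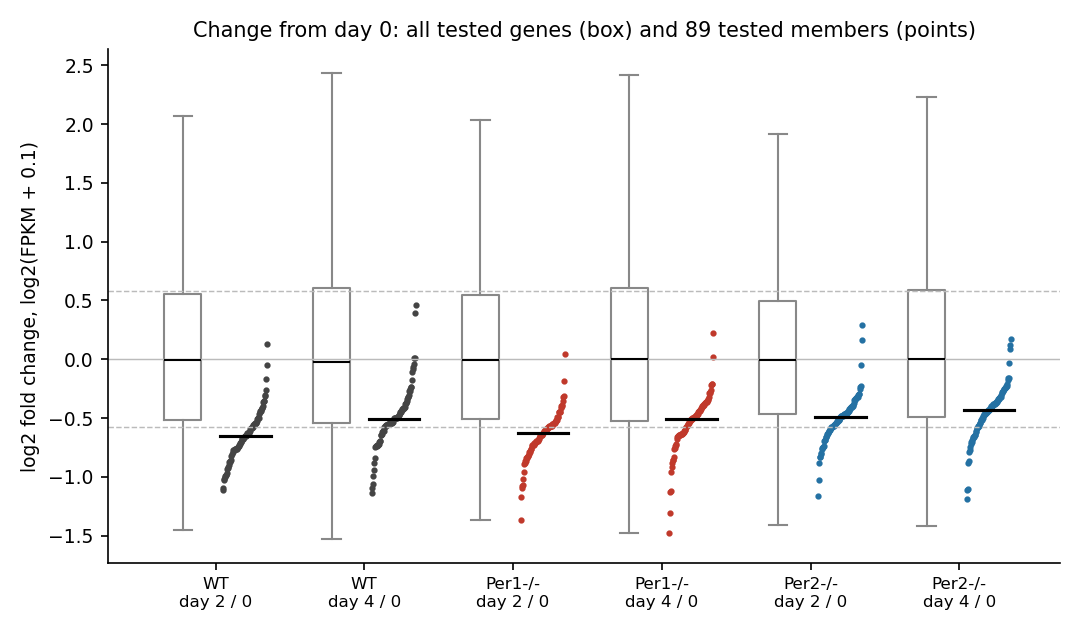
Log2 change in FPKM + 0.1 from day 0 (y axis) for 6 comparisons (x axis), with a box for all 14932 tested genes (quartiles, whiskers from the 5th to the 95th percentile), a point for each of the 89 tested members and a bar at their median. Dashed lines mark the fold threshold at 0.58 in either direction. The medians of the members lie between -0.65 and -0.43 and those of all genes between -0.02 and 0.00.

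The median of the members was below 0 in all 6 comparisons under every scaling tried, but the size of the change and the number of calls depended on the scaling. The deposited FPKM carry a between-library size factor that holds the median gene level. When the values were instead rescaled to a common sum in each library, the median of all tested genes moved up by 0.25 to 0.41 on the log2 scale, and scaling fragments by the library total moved it up by 0.24 to 0.28. The median of the members was then -0.25 to -0.11 and -0.35 to -0.19, and 0 to 9 and 1 to 12 members were called lower. Each scaling multiplies all values of a library by the same factor, so the distance from the members to the median gene could hardly change. It was -0.64 to -0.44 as deposited and -0.63 to -0.43 with either other scaling. Of all calls, 51.3 to 53.5% were upward with the deposited scale, 71.7 to 81.8% with the common sum, and 71.4 to 75.5% with the library total. Part of the common sum is a single 57-base row, Gm23935, which took 3.82 to 25.03% of summed FPKM. Without it the members' median was -0.23 to -0.10. The changes below are on the deposited scale, that is relative to the median gene, and in bulk RNA fewer cells of a type and less RNA per cell cannot be told apart.

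**Figure D3:**
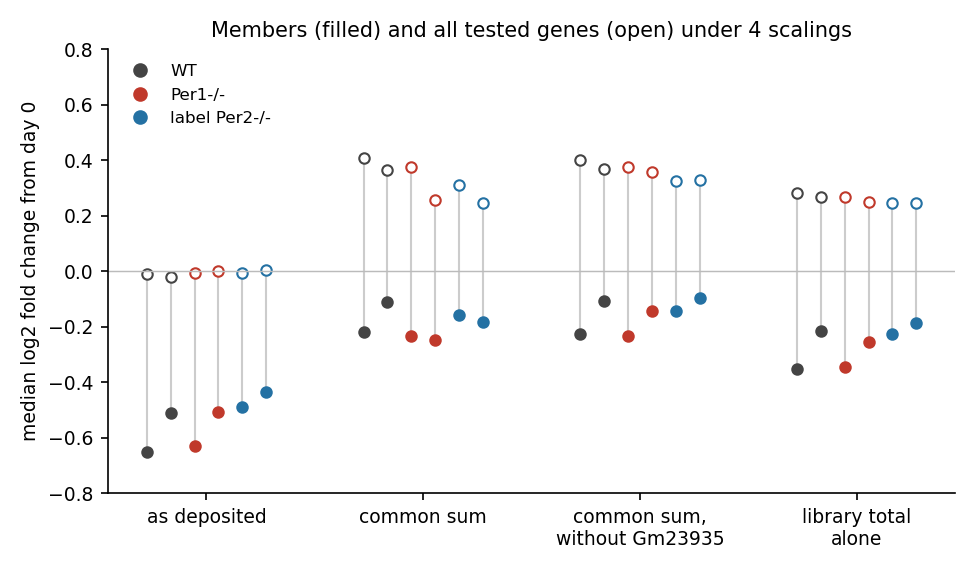
Median log2 change from day 0 (y axis) of the 89 tested members (filled) and of all tested genes (open) in the 6 comparisons (x axis) under 4 scalings of the libraries. The level of both sets moves with the scaling. The members lie below all genes by 0.43 to 0.64, a distance that a common factor for each library can hardly change.

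Between days 2 and 4 no member was called in any genotype by limma, where 3.21% of all genes were called in WT, 2.44% in Per1-/- and 4.06% under the Per2-/- label. The same fit with voom weights on fragments also called 0. At an unadjusted p under 0.05 the members numbered 9, 4 and 8 (10.1, 4.49 and 8.99% of those tested), below the 19.9, 20 and 22.6% of all genes at that threshold. Their median change was 0.13 in WT, 0.10 in Per1-/- and 0.03 under the Per2-/- label. Rpl13a, named after its values were seen, was the member that passed the adjusted p alone in this comparison, lower by a log2 change of -0.33 under the Per2-/- label (adjusted p = 0.0348).

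Large and small subunit genes had similar medians. On day 2, 32 of the 46 large subunit genes and 21 of the 31 small subunit genes were called lower in WT, 25 and 19 in Per1-/-, and 9 and 9 under the Per2-/- label. As shares these were 69.6 and 67.7%, 54.3 and 61.3%, and 19.6 and 29.0%, where 19.7, 18.8 and 16.8% of all genes were called lower, so that the share of large subunit genes under the Per2-/- label was near the background. The median changes of large and small subunit genes were -0.65 and -0.68, -0.60 and -0.64, and -0.47 and -0.52. On day 4 they were -0.54 and -0.51, -0.50 and -0.52, and -0.43 and -0.42. The change of a core gene on day 2 in one genotype went with its change in another, across 77 genes, with a Pearson r of 0.63 between WT and Per1-/-, 0.83 between WT and the Per2-/- label and 0.42 between Per1-/- and the Per2-/- label (Spearman rho 0.73, 0.77 and 0.64). These genotypes share no library, but the genes share their annotation and mapping, so the values are a description.

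Members called lower on both days in all 3 genotypes were 8, of which 5 are core genes, and among them were Rplp1, Rplp2, Rps2, Rpsa, Rps27l, Rpl7l1 and Rps19bp1. Rplp2 is named here because of this count. All 8 stayed below 0 in all 6 comparisons under every scaling, but with the common sum Rps19bp1 was called in 5, Rps2 and Rps27l in 4, Rpsa in 2, Rplp2 in 1 and the others in 0. Members called in none of the 6 were 21, among them Rps14, Rps3a1, Rpl3, Rpl4, Rps4x and Rpl22. Not all of them changed little: Rps27a had log2 changes of -1.02 to -0.60 but a replicate SD of 0.607 on the log2 scale.

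Rplp1 of the stalk, on chromosome 9 (61913284 to 61914542, minus strand), was the most abundant member. Its WT levels were 2953, 2549 and 2412 FPKM on day 0, then 1614, 1708 and 1238 by day 2, and finally 1577, 1742 and 1557 by day 4. Per1-/- replicates held 2378, 2817 and 2484 FPKM, then 1528, 1575 and 1634, then 1448, 1729 and 1745. Under the Per2-/- label the values were 2107, 2401 and 2324 FPKM, then 1680, 1340 and 1421, then 1212, 1541 and 1413. No later library of any genotype reached the lowest day 0 library. The log2 change in WT was -0.80 ± 0.14 (SE) on day 2, 1.75 times lower (limma, adjusted p = 3.37e-05), and -0.70 on day 4, and it was -0.72 to -0.63 in the other genotypes.

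The other stalk genes moved the same way by different amounts. Rplp2 on chromosome 7 (141447370 to 141451585, plus strand), whose start carries the short pyrimidine run printed above, went in WT from 235, 222 and 236 FPKM on day 0 to 142, 136 and 123 on day 2 and 142, 139 and 136 on day 4. Its log2 changes were -0.79 and -0.73 in WT, -0.84 and -0.91 in Per1-/-, and -0.61 and -0.75 under the Per2-/- label. Rplp0, which anchors the stalk to ribosomal RNA, went in WT from 1328, 1198 and 1371 FPKM to 911, 905 and 821 and then 967, 1004 and 800. Its groups did not overlap either, but its changes of -0.60 to -0.47 passed the fold threshold only in Per1-/- on day 2.

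Rps2 and Rpsa, both of the small subunit and both without a pyrimidine run at their annotated start, were among the members that fell by the most. On day 2 the 13 core genes with such a run had median changes of -0.76 in WT, -0.71 in Per1-/- and -0.56 under the Per2-/- label. For the 44 core genes with a matched promoter and no run they were -0.66, -0.61 and -0.49. A link between the run and the change was not tested. Rps2 on chromosome 17 (24718116 to 24721929, plus strand) held 956, 830 and 988 FPKM in WT on day 0, then 518, 476 and 408 by day 2, and finally 432, 442 and 424 by day 4. Its Per1-/- values were 850, 1095 and 930 FPKM, then 406, 478 and 475, then 378, 510 and 437. The libraries labelled Per2-/- held 854, 911 and 846 FPKM, then 603, 413 and 472, then 404, 387 and 354. The days are thus far apart in each genotype, with no later library above 603 FPKM and no day 0 library below 830. The log2 change was -0.99 ± 0.13 on day 2 in WT (limma, adjusted p = 2.2e-06), 1.98 times lower, and -1.09 on day 4, and it reached -1.19 on day 4 under the Per2-/- label.

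Rpsa, which is also known as the laminin receptor precursor, lies on chromosome 9 (120127689 to 120132369, plus strand). WT cultures had 630, 496 and 592 FPKM on day 0, then 327, 334 and 287 by day 2, and finally 311, 347 and 272 by day 4. In Per1-/- the levels were 544, 599 and 559 FPKM, then 276, 328 and 321, then 279, 356 and 309. Those labelled Per2-/- had 526, 545 and 552 FPKM, then 368, 259 and 352, then 321, 275 and 286. Its log2 changes were -0.89 to -0.75 over the 6 comparisons, with -0.85 ± 0.13 in WT on day 2 (limma, adjusted p = 8.01e-06).

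Rps19bp1, which is no subunit, was among the members that fell by the most. In WT it went from 26.3, 25.4 and 29.6 FPKM to 12.6, 12.1 and 12.6 and then 12.9, 13.4 and 12.3, and its 6 log2 changes were -1.13 to -0.81. Rpl7l1, a paralog of Rpl7 that acts in ribosome assembly, went in WT from 36.2, 32.2 and 36.6 FPKM to 21.5, 20.9 and 17.3 and then 20.6, 20.8 and 21.1, with log2 changes of -0.82 to -0.71. Both were low beside most core genes, and the later days did not overlap day 0 in WT for either.

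**Figure D4:**
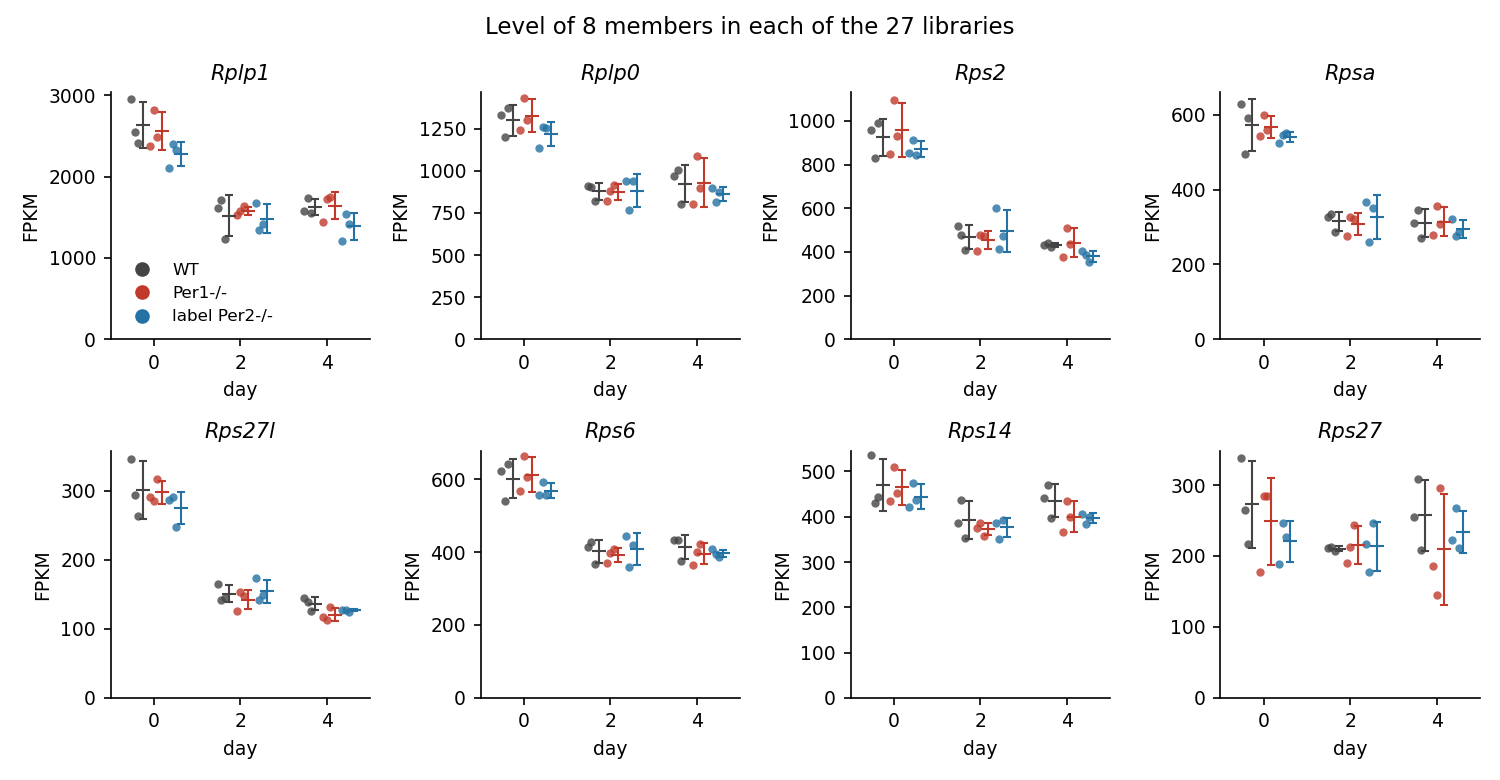
FPKM (y axis) of Rplp1, Rplp0, Rps2, Rpsa, Rps27l, Rps6, Rps14 and Rps27 in the 27 libraries by day (x axis), with a point for each library and mean ± SD of the 3 replicates of WT (grey), Per1-/- (red) and the libraries labelled Per2-/- (blue). For Rplp1, Rps2, Rpsa and Rps27l each later library lies below each day 0 library of its genotype, while days 0 and 4 overlap for Rps27 in each genotype.

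Several members fell on day 2 and were nearer their starting level on day 4. Rps29, of the small subunit, held 395, 379 and 321 FPKM in WT on day 0, then 172, 179 and 187 by day 2, and finally 295, 284 and 202 by day 4, and was called on day 2 in all 3 genotypes (log2 changes of -1.02, -0.74 and -0.69) and on day 4 in none. Rpl41, which encodes the shortest of the ribosomal proteins, went from 1176, 955 and 1027 FPKM to 558, 589 and 574 and then 741, 827 and 573 in WT, with changes of -0.87 on day 2 and -0.57 on day 4. Rpl21 in WT went from 53.5, 49.8 and 46.2 FPKM to 20.3, 23.1 and 32.5 and then 36.0, 45.6 and 29.6, and was called lower at day 2 in each genotype. None of these genes was called between days 2 and 4 in the fit of all libraries. Without replicate 1 of day 4 under the Per2-/- label, Rps29 was called higher there on day 4 than on day 2 (log2 change 0.78, limma, adjusted p = 0.0428), and this was the only member called between these days when any library was left out.

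Rpl38, known for its part in the translation of Hox mRNAs in the embryo, held 611, 563 and 496 FPKM in WT on day 0 and 263, 257 and 258 by day 2. Per1-/- cultures went from 486, 627 and 543 FPKM to 251, 346 and 336. The libraries labelled Per2-/- went from 339, 415 and 523 FPKM to 275, 220 and 253. The day 2 and day 0 libraries did not overlap in any genotype, and the gene was called lower in each.

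Other members known for roles of their own were called in some comparisons and not in others. Rps6, the substrate of S6 kinase, held 622, 541 and 642 FPKM in WT on day 0, then 413, 427 and 367 by day 2, and finally 434, 433 and 375 by day 4. It was called lower in Per1-/- on both days (log2 changes of -0.64 and -0.63) and fell just short of the fold threshold in WT (-0.58 on day 2). Rpl5 held 247, 192 and 214 FPKM in WT on day 0, then 144, 155 and 136 by day 2, and finally 150, 158 and 139 by day 4. Rpl11, its partner in binding Mdm2, went from 204, 173 and 168 to 113, 115 and 105 and then 130, 130 and 114. On day 2 in WT their changes were -0.58 and -0.71, and both were called. Rps19, mutated in Diamond-Blackfan anaemia like Rpl5 and Rpl11, was called in WT on day 2 alone (-0.58). The X-linked Rpl10, which lies near the peptidyl transferase centre, was called on day 2 in all 3 genotypes (-0.65, -0.69 and -0.60) and on day 4 in none.

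Rps14, whose loss of a copy marks the human 5q- syndrome, was called in no comparison. In WT it stood at 537, 431 and 443 FPKM on day 0, then 387, 437 and 354 by day 2, and finally 441, 470 and 397 by day 4. Per1-/- libraries had 436, 509 and 452 FPKM, then 374, 386 and 358, then 367, 435 and 399. Under the Per2-/- label the levels were 421, 475 and 438 FPKM, then 386, 352 and 391.98, then 407, 385 and 399. In WT, day 0 overlapped both later days. Its 6 log2 changes were -0.32 to -0.11, and they were above 0 in all 6 comparisons with the common sum and in 5 with the library total. Rps3a1, one of the 5 most abundant members, had changes of -0.44 to -0.30 and Rpl22 of -0.36 to -0.21, and the latter turned above 0 in all 6 with the common sum.

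Among the paralogs, Rps27l stood out from its partner Rps27. Rps27l is a known p53 target gene, and both encode forms of the same small subunit protein. The first 60 coding bases of both, and of Rps27rt, are shown because the counts of these genes depend on how well reads tell them apart (GENCODE vM21 on GRCm38). Capitals mark bases that differ from Rps27.
Rps27 (gene at chr3:90212522-90213651, minus strand): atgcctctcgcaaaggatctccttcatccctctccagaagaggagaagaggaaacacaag
Rps27l (gene at chr9:66946086-66949516, plus strand): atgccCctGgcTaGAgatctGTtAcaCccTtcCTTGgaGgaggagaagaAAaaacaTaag
Rps27rt (gene at chr9:114982366-114982739, minus strand): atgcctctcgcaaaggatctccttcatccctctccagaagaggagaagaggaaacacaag
Over the 252 coding bases Rps27l and Rps27 shared 192 (76.2%), with no identical run longer than 11 bases, so that reads can separate them. Rps27rt and Rps27 were identical over all 252, and fragments from their coding sequences cannot be told apart.

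Rps27l held 346, 294 and 263 FPKM in WT on day 0, then 165, 142 and 145 by day 2, and finally 145, 138 and 126 by day 4. Its Per1-/- levels were 290, 286 and 317 FPKM, then 126, 153 and 148, then 117, 113 and 132. In the libraries labelled Per2-/- they were 287, 290 and 248 FPKM, then 174, 142 and 149, then 128, 128 and 125. Day 0 lay wholly above both later days in each genotype. The log2 change was -0.99 ± 0.10 in WT on day 2 (limma, adjusted p = 7.36e-08) and -1.14 on day 4, and the change on day 4 in Per1-/- was -1.30, 2.47 times lower (adjusted p = 1.64e-09). Rps27 held 338, 264 and 217 FPKM in WT on day 0, then 211, 213 and 207 by day 2, and finally 255, 309 and 209 by day 4, and with changes of -0.35 to 0.08 it was called nowhere. The level of Rps27l as a percent of that of Rps27, per length, went in WT from 112 ± 9.54 on day 0 to 71.7 ± 5.78 and 54.0 ± 8.13 (SD, n = 3). It went from 125 ± 33.6 to 66.3 ± 5.60 and 61.6 ± 16.5 in Per1-/-, and from 126 ± 22.3 to 73.4 ± 11.4 and 54.8 ± 6.12 under the Per2-/- label. These percentages take the Rps27 row alone, which held 50.4 to 87.6% of the fragments on Rps27 and its named copies in a library. The highest percentage, 163 in replicate 1 of Per1-/- on day 0, fell where that share was lowest. Whether Rps27l exceeded Rps27 on day 0 therefore cannot be told from them. Among the listed regulators, Mdm2, which encodes the ligase that degrades p53, went from 58.7 ± 3.01 to 26.6 ± 3.04 FPKM in WT on day 2 (log2 change -1.14), and Cdkn1a changed by -1.15 in WT on day 4.

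Among the other paralog pairs, Rpl7l1 was 9.86 ± 0.538% of Rpl7 on day 0 in WT, and its ratio to Rpl7 on day 4 was 0.721, 0.755 and 0.714 of that on day 0 in WT, Per1-/- and the Per2-/- label, while Rpl7 itself was called nowhere. Rpl22l1, which can stand in for Rpl22, stood in WT at 20.01, 24.1 and 15.9% of the level of Rpl22 before induction and at 18.6, 17.97 and 25.7% by day 4. It was called once, in Per1-/- on day 2 (-0.62). Rpl36al, at 0.174 to 1.45 FPKM and with 5 to 38 fragments a library, was called lower in 5 of the 6 comparisons, all but WT on day 2, with log2 changes of -1.48 to -0.77. In Per1-/- it held 1.45, 1.05 and 0.701 FPKM on day 0 and 0.272, 0.260 and 0.431 by day 4, and this change of -1.48 ± 0.38 (limma, adjusted p = 0.00212) was the lowest of any member there. Its ratio to Rpl36a on day 4 was 0.675, 0.460 and 0.551 of that on day 0 in WT, Per1-/- and the Per2-/- label, and all 50-base windows of its coding sequence were shared with another annotated gene. With the common sum it was called in 1 comparison. Rpl39l, known from testis, had 1929 fragments over all 27 libraries. The muscle paralog Rpl3l had 28 fragments in 16 libraries and the testis paralog Rpl10l had 0, so that no change of either was detectable at this depth.

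Near-identical copies limit what the counts of single members can tell. Ribosomal protein genes have many processed pseudogenes, and 76 of the 77 core genes shared at least one 50-base window of coding sequence with another annotated gene. For 65 of them over 50% of windows were shared and for 32 over 90%. Rows annotated as pseudogenes with a member's name numbered 297 and held 0.12 to 0.17% of fragments in each library. Pseudogenes under other symbols are in neither this share nor the sums with copies below. For Rpl7a, 121 annotated pseudogenes shared a window, but only 12 pseudogene rows carried its name. The median change on day 2 in WT was -0.69 for the 32 core genes with over 90% of windows shared and -0.66 for the 12 with at most 50%.

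For Rps10 and Rpl17 (71.3%), most fragments of the gene and its named copies were counted on the copies. Rps10 held 1897 fragments of its own over all libraries, and 98.0% of the 96011 fragments on Rps10 and its named copies together lay on the copies. Its log2 changes of -1.02 to 0.13 in scaled fragments (FPKM times gene length in kilobases, so on the same scale between libraries as the deposited values) became -0.73 to -0.45 when copies were added. Its replicate SD on the log2 scale, pooled over the groups, went from 0.348 to 0.113. Rpl17, which had the largest fitted change of a core gene (-1.37 ± 0.49 in Per1-/- on day 2), held 241, 80.4 and 81.8 scaled fragments in the 3 WT replicates of day 0. With its 11 copies these became 613, 522 and 538, and the 6 changes went from a range of -1.37 to 0.16 to one of -0.44 to -0.27. Fragments of near-identical rows were divided differently among the replicates. With Rps27rt and its other copies added, the changes of Rps27 were -0.36 to 0.03, so that its contrast with Rps27l remained.

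**Figure D5:**
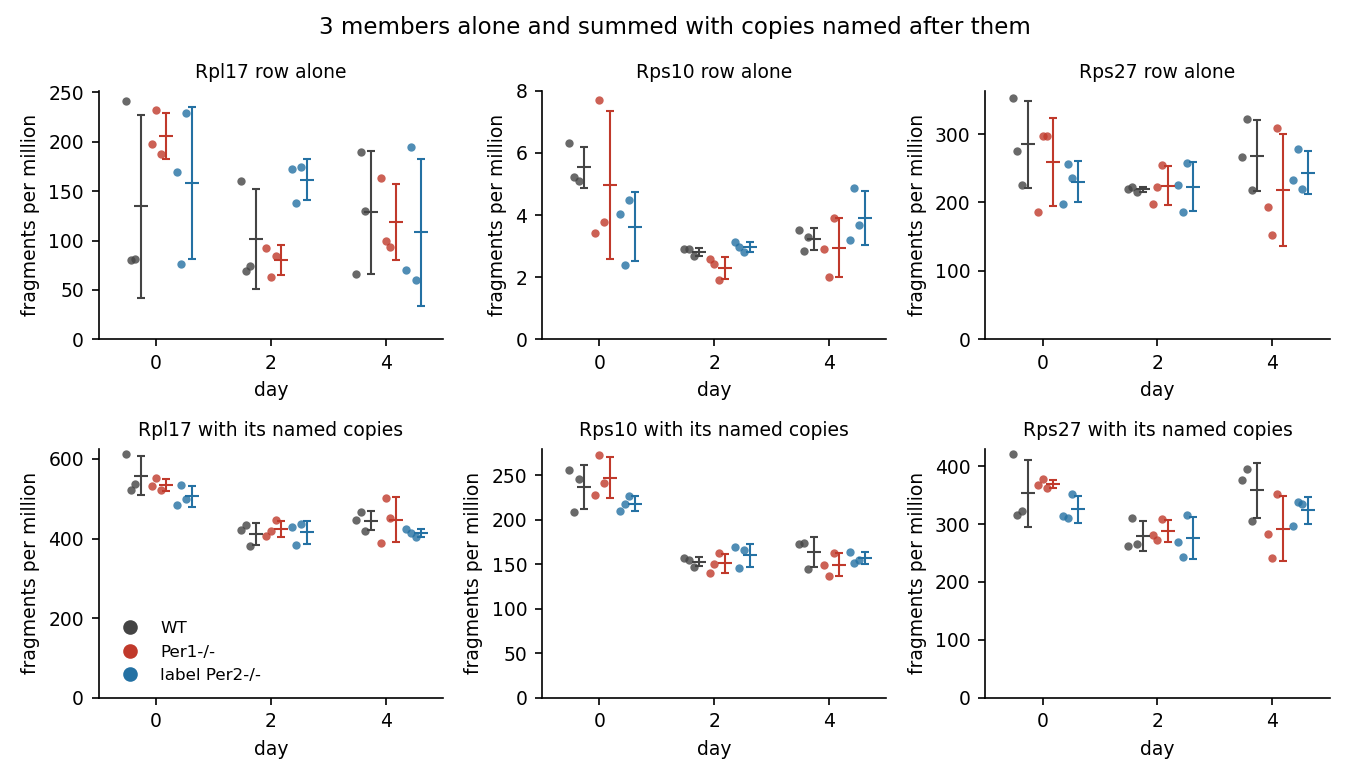
Scaled fragments (y axis, FPKM times gene length in kilobases) of Rpl17, Rps10 and Rps27 in each library by day (x axis), for the row of the gene alone (top) and summed with the rows of its named copies (bottom), with points for libraries and mean ± SD for WT (grey), Per1-/- (red) and the Per2-/- label (blue). The replicates of Rpl17 lie close together only when the copies are added.

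No ribosomal protein gene was called between genotypes, but many differed slightly in 1 direction on day 0. On day 0, where 0.0134, 0.0067 and 0.0201% of all genes were called for Per1-/- against WT, the Per2-/- label against WT, and Per1-/- against the Per2-/- label, limma called 0 members in each. On day 2 these backgrounds were 0.0067, 0.0268 and 0.0737% and on day 4 they were 0.0268, 0.0067 and 0.556%, again with 0 members. The fit with voom weights also called 0. At an unadjusted p under 0.05, 0, 15 and 21 members passed on day 0 (0, 16.9 and 23.6% of those tested), where 4.82, 3.94 and 5.97% of all genes did. For day 2 the members numbered 2, 0 and 4, with 2.75, 2.87 and 8.22% of all genes. For day 4 they were 2, 3 and 10, with 6.19, 3.42 and 13.2% of all genes. The member medians for the Per2-/- label against WT were -0.16, -0.00 and -0.11 on the log2 scale on days 0, 2 and 4, and those for Per1-/- against the Per2-/- label were 0.17, 0.04 and 0.10. On day 0, 76 of the 77 core genes lay below 0 in the first of these pairs and all 77 above 0 in the second. Of all tested genes, 54.3 and 46.9% lay below 0 in these pairs. Both pairs rest on the same 3 libraries labelled Per2-/-. With the common sum the medians of day 0 were -0.059 and 0.063.

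The members with the lowest p in these comparisons show the size of differences that did not pass. For Per1-/- against the Per2-/- label on day 4, Rpl28 differed by 0.27 and Rpl3 by 0.23 on the log2 scale (limma, adjusted p = 0.232 and 0.239). On day 2 of the same pair Rps29 differed by 0.52 (limma, adjusted p = 0.48), and on day 0 Rpl15 by 0.28 (limma, adjusted p = 0.681). Against WT on day 0, the Per2-/- label differed by -0.35 for Rpl36 and -0.29 for Rpl23 (limma, adjusted p = 1). The SE of a difference between 2 groups had a median of 0.114 over the members, with a range of 0.0732 to 0.490, the highest being that of Rpl17.

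The change over time was also compared between genotypes, as a difference of differences. The background was 0% of all genes called in each of the 4 tests, of Per1-/- and the Per2-/- label against WT on days 2 and 4, and 0 members were called by limma or with voom weights. At an unadjusted p under 0.05 the members numbered 0 and 2 for the change to day 2, where 2.05 and 2.91% of all genes passed, and 1 and 1 for that to day 4, where 3.35 and 2.61% did. The smaller count of members called on day 2 under the Per2-/- label went with a median difference in change from WT of 0.16. Above 0 lay 82 of the 89 members and all 77 core genes, where 47.2% of all tested genes lay below 0. That median difference was 0.057 with the common sum. It draws on the same day 0 libraries as the median offset of -0.16 from WT given above, and so is not a separate observation. The lowest p belonged to Rpl13a (0.31) and Rps19bp1 (0.30), with adjusted p = 1 for both (limma). No single gene thus passed a test of a difference between genotypes, and the shift of the members as a group was not tested.

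Genes that build ribosomes were lower too, and by more at the median than those that encode the subunits. Of 52 tested ribosome biogenesis genes, 43 to 47 were called lower (82.7 to 90.4%) and 0 higher in each of the 6 comparisons of days with day 0, with medians of -0.996 to -0.87. With the common sum their medians were -0.72 to -0.52 and 22 to 33 were called. Nhp2, of the particles that modify ribosomal RNA, went from 68.0 ± 6.43 to 18.6 ± 2.28 FPKM in WT on day 2 (SD, n = 3, log2 change -1.86). Nop2 and Rrp9, also of the nucleolus, changed by -1.64 each. RNA polymerase I genes had 5 to 8 of 17 called lower (29.4 to 47.1%) and medians of -0.50 to -0.31, which ran from -0.23 to 0.07 with the common sum and so turned sign there, and Polr1a, its largest subunit, changed by -0.92 in WT on day 2.

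Of 77 tested genes for mitochondrial ribosomal proteins, 12 to 38 were called lower over the 6 comparisons (15.6 to 49.4%), the fewest on day 2 under the Per2-/- label, where 16.8% of all genes were, with medians of -0.56 to -0.36 that shrank to -0.29 to -0.03 with the common sum. Mrps6 changed by -1.98 in WT on day 2, from 35.5 ± 4.78 to 8.91 ± 1.14 FPKM. Of 3 subunit genes whose symbols lie outside the naming rule, 1 or 2 were called lower in each comparison. Rack1, a scaffold on the small subunit, changed by -0.63 in WT on day 2.

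Among other lists of the translation machinery, more genes were called lower than the 16.8 to 20.9% of all genes. Of 17 other genes with TOP mRNAs, 7 to 10 were called lower (41.2 to 58.8%), with medians of -0.62 to -0.38 that were -0.27 to -0.052 with the common sum, among them Npm1, a nucleolar chaperone, which changed by -0.95 in WT on day 2. Of 7 tested elongation factor genes 4 were called lower in each comparison (57.1%, medians of -0.79 to -0.61, or -0.54 to -0.20 with the common sum), and Eef1g went from 421 ± 29.3 to 236 ± 24.7 FPKM in WT on day 2 (log2 change -0.84). A further list took all genes with Eif1 to Eif6 symbols, not all of which encode initiation factors. Of its 53 tested genes 19 to 27 were called lower (35.8 to 50.9%) and 1 or 2 higher. Their medians were -0.60 to -0.43, or -0.33 to -0.058 with the common sum. On day 2 in WT Eif5a changed by -1.39 and Eif1a by -1.55. Eif4e3, an atypical cap-binding protein, rose from 1.92 ± 0.212 to 6.64 ± 0.649 FPKM (log2 change 1.74). The list of 21 regulators mixes genes of the Myc, mTOR and p53 pathways, activators and inhibitors alike, so its count has no single direction. Of these, 8 or 9 were lower (38.1 to 42.9%) and 0 or 1 higher in each comparison. Their medians were -0.58 to -0.43, or -0.30 to -0.12 with the common sum. Myc, a driver of ribosome production, changed by -1.57 and Tsc2, an inhibitor of mTOR, by 0.67 in WT on day 2.

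Markers of the cells in these cultures moved over the same days. The summed level of 12 genes of dividing cells was 201 to 424 FPKM on day 0, 138 to 237 on day 2 and 111 to 149 on day 4, and 2 to 11 of them were called lower over the 6 comparisons, while their median change ran from -0.93 to 0.055 with the common sum. Macrophage markers, 15 genes, summed to 138 to 1139, 177 to 1301 and 467 to 2213 FPKM on the 3 days, with 1 to 14 called higher. Neuron markers had 9 to 12 called higher and fibroblast markers 4 to 8, with 1 or 2 fibroblast markers lower. Muscle markers summed to 86.8 to 415 FPKM on day 0, 41.7 to 74.3 on day 2 and 46.9 to 105 on day 4. Of the 10 tested muscle markers, however, 3 to 6 were called higher and 2 lower in each comparison, with median changes of 0.094 to 1.92. Endothelial markers summed to 1.8 to 11 FPKM, and 5 of 6 red cell markers had at most 3 fragments in any library. The part of dividing cells and of macrophages in the change of ribosomal protein mRNAs was not tested.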

How the data were processed

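Bulk poly(A) RNA was sequenced from 27 cultures of WT, Per1-/- and Per2-/- MEFs on days 0, 2 and 4 of reprogramming, with 3 replicates a group. Per the study's methods and the labels, the authors aligned paired reads of nondirectional libraries with Hisat2 2.0.5 to mm10, counted with featureCounts 1.5.0-p3 and deposited FPKM per gene. Their FPKM denominator holds a between-library size factor, and solving each value for gene length gave whole fragments for 100% of values within 0.01, from which depth, shares and the voom fit were made. Reads shared by identical copies and by overlapping antisense genes cannot be assigned by strand.

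The 14932 genes averaging 0.5 FPKM or more were tested on log2(FPKM + 0.1), which understates changes of low genes, with limma 3.58.1 (trend) in R 4.3.3 over 9 groups and no block. Adjustment was by Benjamini-Hochberg over all tested genes in each comparison. The fit was tested on simulated data. Named members were the 5 highest and 5 lowest in mean level, paralog pairs, up to 5 called members a direction and day comparison, the called members or 2 lowest p a genotype comparison, 8 members of known roles, and up to 3 called genes a list and direction. The members, lists and rules were chosen with earlier results of these data known. Others named are in the sets counted. Promoters came from RefSeq GRCm38.p6 and coding sequence from GENCODE vM21. Some genes are not reported here.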

Additional observations from a re-analysis of the deposited data

How the results depend on the processing

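In the order WT days 2 and 4, Per1-/- days 2 and 4, and Per2-/- label days 2 and 4, each against day 0, the members called lower numbered 3, 3, 3, 9, 0 and 4 after rescaling to a common sum, 3, 3, 3, 5, 0 and 2 with Gm23935 left out of that sum, and 12, 5, 6, 9, 1 and 4 with fragments scaled by library total alone. Their median log2 changes were -0.22, -0.11, -0.23, -0.25, -0.16 and -0.18, then -0.23, -0.11, -0.23, -0.15, -0.14 and -0.10, then -0.35, -0.21, -0.34, -0.26, -0.23 and -0.19. Here the all-gene median itself moves. With the common sum the median was also -0.028 for day 4 against day 2 in Per1-/-, -0.059 and 0.063 for the Per2-/- label against WT and Per1-/- against the Per2-/- label on day 0, -0.14 for Per1-/- against WT on day 4, and 0.057, -0.14 and -0.11 for the differences in change of the Per2-/- label on day 2, Per1-/- on day 4 and the Per2-/- label on day 4. With no minimum fold change the counts were 73, 81, 73, 77 and 64 for WT day 4, Per1-/- days 2 and 4 and Per2-/- label days 2 and 4, and 1 for day 4 against day 2 under the Per2-/- label. The share of summed FPKM gave a WT day 2 to day 0 ratio of 0.851.

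Leaving out 1 library at a time gave 47 to 64, 19 to 38, 37 to 64, 18 to 40, 12 to 34 and 17 to 28 members lower, with medians of -0.71 to -0.60, -0.57 to -0.45, -0.70 to -0.55, -0.58 to -0.43, -0.55 to -0.43 and -0.49 to -0.38, and 0 to 1 higher between days 2 and 4 under the Per2-/- label. The count moved most without WT day 0 replicate 2 (37) or WT day 4 replicate 2 (38) for WT day 4, without Per1-/- day 0 replicate 2 (18) for Per1-/- day 4, and without replicate 2 of day 2 (12) under the Per2-/- label. With the replicate block the counts were 57, 24, 52, 30, 22 and 20, and correlations of same-numbered libraries were -0.017 to 0.29 between days of a genotype (14 of 27 pairs over 0.1) and -0.26 to 0.19 between genotypes (3 of 27). No single member changed direction while called under any setting, and 0 members were called between genotypes under every setting. Fits without Gm23935 and with fragments scaled by library total, and the summaries with copies added and with the 77 core genes alone, were chosen after seeing the data.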
